A study of Caenorhabditis elegans with 12 samples.

Results

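The genes described here are members of developmental transcription factor families of the nematode Caenorhabditis elegans, chosen by symbol. A gene was taken when it stood in at least 1 of the authors' 3 tables of selected genes and its symbol began with ceh-, lim-, hlh-, elt-, tbx-, fkh-, grh-, zip-, atf-, dmd-, sox-, ztf-, ets-, mab- or vab-. This gave 31 of the 2949 genes in the tables, and 14 of the 15 prefixes had a member. The study sequenced total RNA of early embryos from 4 strains with 3 libraries each. The double mutant combined lin-65(delta) on I with met-2(n4256) on III, the single mutants carried lin-65(delta) I or met-2(n4256) III alone, and N2 (Bristol) was the wild type. All strains were kept at 20 °C for 60 to 65 h, a time that varied by strain, and the embryos ranged from 1 to 300 cells. The labels call the 3 libraries of a strain independent biological replicates. Whole embryos were pooled, so a change in the share of a cell type and a change in RNA per cell cannot be told apart. Values are log2 ratios for the 9 mutant libraries, where 1 unit is 2-fold. N2 has no column, and it was inferred as the baseline.

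MET-2 is a histone methyltransferase that places mono- and dimethylation on lysine 9 of histone H3, a mark of repressed chromatin, and LIN-65 is its partner protein. Transcription factors of the families described here bind DNA through a family-specific fold, such as the homeodomain, the basic helix-loop-helix or the forkhead. In the worm embryo, some of these factors commit early blastomeres to a lineage, and others act later as selectors of the final identity of neurons, muscle, gut or epidermis. The prefixes mab- and vab- name a mutant phenotype (abnormal male tail, abnormal body shape) and not a protein fold. Both members with these prefixes, mab-7 and vab-9, encode membrane proteins. The label of transcription factor therefore does not hold for them, nor for lim-8 and lim-9, whose LIM domains come without a homeodomain.

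Nearly all members stood above the baseline in all mutants. In all 9 libraries 29 of 31 members lay above 0, a share of 93.5% against 84.6% of all genes in the tables. The exceptions were tbx-36, which was above 0 in the lin-65 and double mutant libraries and below it in met-2, and fkh-5, which was below 0 throughout. The double mutant's table held 29 members as higher and 1 as lower, where 85.0% and 4.41% of all 2949 genes were so listed. The lin-65 table held 12 as higher, with a background of 29%, and 21 were held as higher by the met-2 table, with a background of 65.2%. No member was listed lower in either single mutant, where 4.04% of all genes were listed lower in lin-65 embryos and 0.644% in met-2. The tables were made by selection on these values, so the counts describe the selection and carry no test. A mean of at least 1 log2 unit was reached by 29 members in the double mutant, 14 in lin-65 embryos and 22 in met-2, beside 85.8%, 36.3% and 68.3% of all genes. A mean of at least 2 log2 units was reached by 7 members in the double mutant, none in lin-65 embryos and 2 in met-2, beside 21.7%, 1.66% and 9.7% of all genes. The double mutant's mean lay above both single mutants' means for 27 members, or 87.1%, and for 77.3% of all genes.

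**Figure D1:**
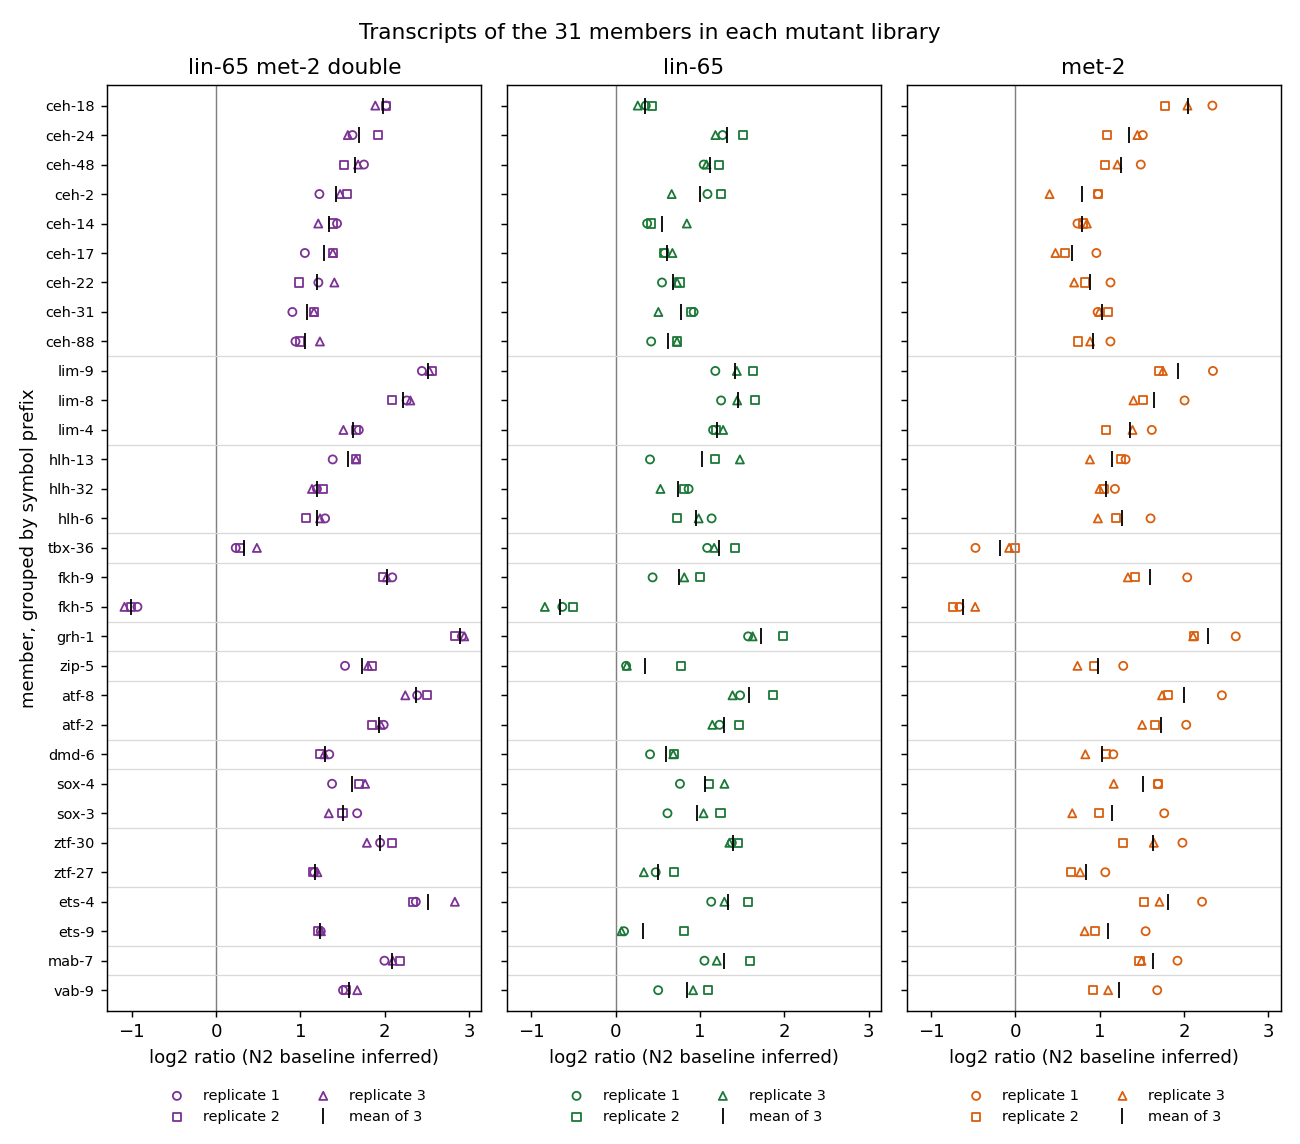
Log2 ratio (horizontal axis, N2 baseline inferred) of each of the 31 members (rows, grouped by symbol prefix) in the double mutant, lin-65 and met-2. Open symbols are single libraries and black bars are means of 3; only fkh-5, and tbx-36 in met-2, lie left of 0.

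The median over members was 1.57 in the double mutant, 0.97 in lin-65 embryos and 1.23 in met-2, beside 1.47, 0.83 and 1.20 over all genes of the tables. Replicate 1 of met-2 stood apart from its group. Its member median was 1.54, that of the other libraries 1.08 and 1.00, and 25 of the 31 members had their highest met-2 value there. The median over all genes was likewise 1.53 in replicate 1 of met-2, against 1.06 and 1.08 in replicates 2 and 3. In lin-65, replicate 2 was highest for 23 members, where the median was 1.11, against 0.86 and 0.98 elsewhere in that strain. Over all genes the median there was 0.97, against 0.78 and 0.77 in replicates 1 and 3, so neither shift was particular to the members. The double mutant medians lay close together at 1.5, 1.56 and 1.56. Both mutated genes went with the labels of their strains. Transcripts of lin-65 stood at −6.04 ± 0.21 (SD, n = 3) in the double mutant, −5.88 ± 0.09 in lin-65 embryos and −0.22 ± 0.04 in met-2. The met-2 transcript stood at −2.76 ± 0.06 in the double mutant, −0.02 ± 0.08 in lin-65 embryos and −2.36 ± 0.04 in met-2. Every value after a ± sign below is also an SD over 3 libraries.

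Homeobox genes of the ceh- class formed the largest family, with 9 of 63 annotated genes. The table of the double mutant held all 9 as higher, that of lin-65 held 2 and that of met-2 held 4. Their family median was 1.34 in the double mutant, 0.68 in lin-65 embryos and 0.92 in met-2. The highest mean over the 9 libraries was that of ceh-18 (WBGene00000441, chromosome X), at 1.457 beside 1.455 for ceh-24. In lin-65 its mean of 0.35 was the lowest of the family. This POU homeobox gene acts in the sheath cells of the gonad and in holding oocytes in meiotic arrest. It stood at 2.02, 2.02 and 1.89 in the double mutant, at 0.36, 0.43 and 0.26 in lin-65, and at 2.34, 1.77 and 2.04 in met-2. The lin-65 libraries were therefore all below those of both strains that carry the met-2 mutation.

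The other ceh- genes with larger values are best known from neurons and pharynx. For ceh-24 (WBGene00000447, chromosome V), an NK-2 class gene of pharyngeal and vulval muscle, the libraries read 1.62, 1.92 and 1.56 in the double mutant, 1.27, 1.51 and 1.18 in lin-65 embryos and 1.51, 1.08 and 1.45 in met-2. The ONECUT gene ceh-48 (WBGene00015934, chromosome IV), expressed across the nervous system, had 1.75, 1.52 and 1.68 in the double mutant, 1.04, 1.23 and 1.08 in lin-65 embryos and 1.49, 1.07 and 1.21 in met-2. Both were held by all 3 tables, and their libraries overlapped between the single mutants. The BarH-type gene ceh-31 stood lower, at 1.08 ± 0.15 in the double mutant, 0.78 ± 0.23 in lin-65 embryos and 1.02 ± 0.07 in met-2.

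The double mutant's table alone held 5 of the 9 ceh- genes. Those with the larger values there were ceh-14, a LIM homeobox gene of the thermosensory neuron AFD, ceh-17, a Phox2-type gene of axon outgrowth, and ceh-2, an Ems-type gene of pharyngeal neurons. The values of ceh-14 were 1.43, 1.39 and 1.21 in the double mutant, 0.37, 0.42 and 0.84 in lin-65 embryos and 0.74, 0.80 and 0.85 in met-2. For ceh-17 they were 1.05, 1.39 and 1.38 in the double mutant, 0.58, 0.58 and 0.67 in lin-65 embryos and 0.96, 0.58 and 0.48 in met-2. In both genes all double mutant libraries lay above all single mutant libraries. The gene ceh-2 averaged 1.42 ± 0.17 in the double mutant, 1.00 ± 0.30 in lin-65 embryos and 0.79 ± 0.33 in met-2, and 1 lin-65 library overlapped the double mutant's range. The others of the 5, ceh-22, the NK-2 gene that activates pharyngeal myosin, and ceh-88, ranged between 0.94 and 1.40 in the double mutant libraries.

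Genes of the lim- class were among the higher members, with all 3 held as higher by every table. The LIM protein lim-9 (WBGene00006407, chromosome I), a part of muscle attachment complexes, stood at 2.44, 2.56 and 2.53 in the double mutant, 1.18, 1.63 and 1.44 in lin-65 embryos and 2.34, 1.71 and 1.75 in met-2. Another LIM protein of muscle attachments, lim-8 (WBGene00017904, chromosome III), read 2.26, 2.09 and 2.30 in the double mutant, 1.25, 1.66 and 1.44 in lin-65 embryos and 2.01, 1.51 and 1.40 in met-2. Both had every double mutant library above every single mutant library. The LIM homeobox gene lim-4, which sets the identity of the olfactory neuron AWB, was lower at 1.62 ± 0.10 in the double mutant, 1.21 ± 0.06 in lin-65 embryos and 1.36 ± 0.27 in met-2. Body wall muscle markers moved in the same order across the mutants. Of 10 such markers 9 had values, and their library medians ranged from 2.14 to 2.21 in the double mutant, 0.92 to 1.28 in lin-65 embryos and 1.57 to 2.18 in met-2. The double mutant and met-2 tables held all 9 as higher and the lin-65 table held 3. Of all genes 85.0%, 65.2% and 29% were so listed. Such entry favours a lower value in lin-65, so the order is no independent support. The part of these markers in the values of lim-8 and lim-9 was not tested.

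Basic helix-loop-helix genes, whose proteins bind DNA as dimers, had 3 of 25 annotated genes in the tables. The double mutant and met-2 tables held all 3 as higher, and the lin-65 table held none. Their means lay between 1.20 and 1.57 in the double mutant, 0.73 and 1.02 in lin-65 embryos and 1.08 and 1.26 in met-2. The Ptf1a-type gene hlh-13 had 1.38, 1.66 and 1.66 in the double mutant, 0.41, 1.18 and 1.47 in lin-65 embryos and 1.31, 1.25 and 0.88 in met-2. Its lin-65 libraries spread more than those of any other member in any mutant except sox-3 in met-2, with an SD of 0.55. The pharyngeal gland factor hlh-6 averaged 1.20 ± 0.12 in the double mutant, 0.95 ± 0.21 in lin-65 embryos and 1.26 ± 0.32 in met-2. The Olig-related hlh-32 averaged 1.20 ± 0.07 in the double mutant, 0.73 ± 0.18 in lin-65 embryos and 1.08 ± 0.09 in met-2.

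The highest member in each of the 3 mutants was grh-1 (WBGene00001707, chromosome I), the worm's only Grainyhead gene, which acts in epidermis and cuticle. Its libraries stood at 2.91, 2.83 and 2.94 in the double mutant, 1.57, 1.99 and 1.62 in lin-65 embryos and 2.61, 2.12 and 2.11 in met-2. The mutants did not overlap, and the double mutant came out highest. Among all 2949 genes its mean ranked 67 in the double mutant, 114 in lin-65 embryos and 121 in met-2. Epidermal markers had values for 5 of 10 genes, and the library medians were 1.47 to 1.67 in the double mutant, 0.81 to 0.88 in lin-65 embryos and 1.15 to 1.47 in met-2. The double mutant and met-2 tables held all 5 as higher and the lin-65 table held 1, which favours a lower value in lin-65. The part of these markers in the values of grh-1 was not tested.

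Basic leucine zipper genes, whose proteins pair through a coiled coil, had 1 of 12 zip- genes and 2 of 5 atf- genes in the tables. All 3 tables held atf-8 and atf-2 as higher. The gene atf-8 averaged 2.37 ± 0.13 in the double mutant, 1.57 ± 0.25 in lin-65 embryos and 2.0 ± 0.39 in met-2, and atf-2 averaged 1.93 ± 0.07, 1.28 ± 0.17 and 1.73 ± 0.27 in the same order. The third, zip-5 (WBGene00007932, chromosome V), was held by the double mutant's table alone. Its values were 1.53, 1.85 and 1.80 in the double mutant, 0.12, 0.77 and 0.13 in lin-65 embryos and 1.28, 0.93 and 0.74 in met-2. In lin-65 it was within 0.13 of the baseline apart from replicate 2, and no library of another mutant was that low.

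ETS genes, whose proteins share a winged-helix DNA-binding domain, had 2 of 7 members in the tables. The gene ets-4 (WBGene00017687, chromosome X), known for roles in lifespan and axon regeneration, had 2.37, 2.34 and 2.83 in the double mutant, 1.13, 1.57 and 1.29 in lin-65 embryos and 2.21, 1.52 and 1.71 in met-2. Its double mutant libraries all exceeded those of the single mutants. The second gene, ets-9, read 1.24, 1.20 and 1.24 in the double mutant, 0.10, 0.81 and 0.07 in lin-65 embryos and 1.54, 0.94 and 0.82 in met-2. As for zip-5, replicate 2 of lin-65 stood above the other libraries of that strain.

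Forkhead genes went in opposite directions. The gene fkh-9 (WBGene00001441, chromosome X) had 2.09, 1.98 and 2.02 in the double mutant, 0.44, 1.00 and 0.81 in lin-65 embryos and 2.04, 1.42 and 1.33 in met-2. All lin-65 libraries of fkh-9 lay below all libraries of both other mutants. Its relative fkh-5 (WBGene00001437, chromosome III) had −0.93, −1.0 and −1.09 in the double mutant, −0.63, −0.50 and −0.84 in lin-65 embryos and −0.66, −0.73 and −0.48 in met-2. It was the only member below 0 in all 9 libraries, which held for 4.58% of all genes, and the double mutant libraries were the lowest. The gene entered only through the double mutant's table, as lower, which favours a low value there.

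The T-box gene tbx-36 (WBGene00006555, chromosome IV) was the only member held by the lin-65 table alone, a class of 3.93% of all genes. It stood at 0.23, 0.28 and 0.48 in the double mutant, 1.08, 1.42 and 1.17 in lin-65 embryos and −0.47, −0.01 and −0.07 in met-2. The 3 mutants did not overlap, with lin-65 highest and met-2 below the baseline. Germ line and oocyte markers followed the same order. Of 10 such markers 6 had values, and their library medians were 1.03 to 1.14 in the double mutant, 1.55 to 1.87 in lin-65 embryos and 0.31 to 0.60 in met-2. All 6 were called higher in lin-65 than in met-2 and lower in the double mutant than in lin-65 by limma. Of all genes 4.92% and 4.61% were so called. The lin-65 table held all 6 as higher and the met-2 table held none, which favours a higher value in lin-65. Of them rme-2, oma-2 and pgl-3 entered only through the lin-65 table, so the calls are no independent support. The part of these markers in the values of tbx-36 was not tested. In contrast to tbx-36, ceh-18 was lowest in lin-65. It was held by the met-2 and double mutant tables and not by the lin-65 one, which favours a lower value in lin-65.

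**Figure D2:**
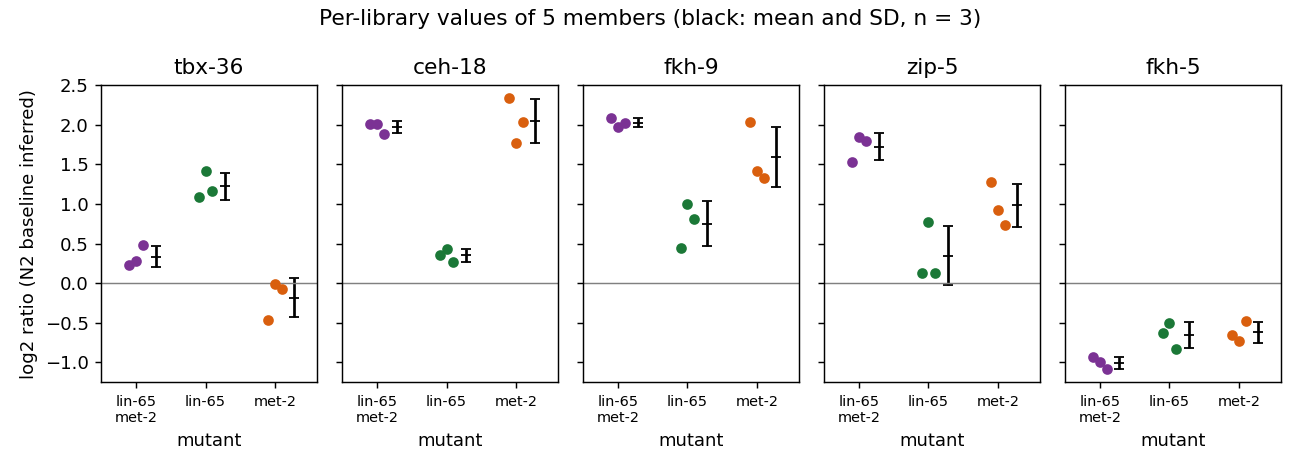
Log2 ratio (vertical axis, N2 baseline inferred) of tbx-36, ceh-18, fkh-9, zip-5 and fkh-5 in the 3 libraries of each mutant (horizontal axis), with mean and SD in black. The lin-65 libraries are highest for tbx-36 and lowest for ceh-18 and fkh-9, replicate 2 of lin-65 overlaps met-2 for zip-5, and fkh-5 lies below 0 in every library.

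The DM domain, SOX and zinc finger genes all stood above 0 in all 9 libraries. The DM domain gene dmd-6, of a family best known for sexual differentiation, averaged 1.29 ± 0.05 in the double mutant, 0.59 ± 0.16 in lin-65 embryos and 1.02 ± 0.17 in met-2. Of the HMG box genes, sox-4 averaged 1.61 ± 0.21, 1.05 ± 0.27 and 1.52 ± 0.30, and sox-3 averaged 1.5 ± 0.17, 0.97 ± 0.32 and 1.14 ± 0.56, in the double mutant, lin-65 and met-2. In met-2, sox-3 stood at 1.76 in replicate 1 and at 0.99 and 0.67 in the others. Of the zinc finger genes, ztf-30 averaged 1.94 ± 0.15 in the double mutant, 1.39 ± 0.05 in lin-65 embryos and 1.63 ± 0.35 in met-2. The second zinc finger gene, ztf-27, was lower in every mutant, at 1.17 ± 0.03 in the double mutant, 0.50 ± 0.18 in lin-65 embryos and 0.83 ± 0.21 in met-2. None of the 6 elt- genes, the GATA factors of gut and epidermis, was in the tables, and their levels are not analysed here.

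The phenotype-named genes were above 0 in all 9 libraries too. The gene mab-7, needed for the shape of male tail rays, averaged 2.09 ± 0.09 in the double mutant, 1.28 ± 0.28 in lin-65 embryos and 1.63 ± 0.25 in met-2. The claudin-like junction protein gene vab-9 averaged 1.57 ± 0.09 in the double mutant, 0.84 ± 0.31 in lin-65 embryos and 1.23 ± 0.40 in met-2.

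Members fell into classes by the tables that held them. All 3 tables held 11 members as higher, or 35.5% against 22.3% of all genes. The met-2 and double mutant tables without lin-65 held 10, or 32.3% against 38.1%, and the double mutant's table alone held 8 as higher, or 25.8% against 22.4%. Means near the limit of 1 did not decide membership by themselves. In met-2, ceh-31 was listed and dmd-6 was not, both at 1.02. In lin-65, the lowest listed member was ceh-48 at 1.11, while sox-4 at 1.05 and hlh-13 at 1.02 were not listed.

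To ask whether the second mutation adds to the effect of the met-2 mutation, the double mutant was compared with met-2. Of 31 members 7 were higher in the double mutant and none lower (limma, adjusted p under 0.05), where 11.8% of all genes were called higher, 4.92% lower and 16.7% in either direction. Before adjustment, 11 members passed 0.05 as higher and 1 as lower. The 7 were zip-5, ets-4, ceh-2, grh-1, ceh-17, lim-8 and ceh-14. The largest difference was that of zip-5 at 0.74 (SE 0.21, adjusted p = 0.0263), followed by ets-4 at 0.70 (SE 0.21, adjusted p = 0.0345) and ceh-2 at 0.63 (SE 0.21, adjusted p = 0.0464). Of the 7, zip-5, ceh-2, ceh-14 and ceh-17 entered only through the double mutant's table, which favours a higher value there. The median difference over members was 0.35 beside 0.32 over all genes.

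These 7 calls depended on single libraries. Without replicate 1 of met-2, which stood highest in its group, 22 members were called, and without it and replicate 2 of lin-65 together 24 were. None was called without replicate 2 or 3 of met-2 or replicate 2 or 3 of the double mutant, 1 without replicate 1 of the double mutant and 4 without replicate 1 of lin-65. With library medians set to 0, grh-1 was called higher, at 0.36, and fkh-5 lower, while the other 6 calls were lost. The entry of fkh-5 through the double mutant's table alone, as lower, favours a lower value there. All double mutant libraries lay above all met-2 libraries in 15 members and below them in 1. These shares were 48.4% and 3.23%, against 27.7% and 8.07% of all genes. Among the 15, ceh-14, ceh-17, ceh-2, dmd-6, zip-5 and ztf-27 entered only through the double mutant's table, which favours a higher value there.

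Against lin-65, the double mutant asks what the met-2 mutation adds. Of 31 members 24 were higher in the double mutant and 1 lower (limma, adjusted p under 0.05), where 74.3% and 4.61% of all genes were so called, 78.9% together. The homeobox gene ceh-18 had the largest difference at 1.62 (SE 0.18, adjusted p = 3.07e-06). It was followed by zip-5 at 1.38 (SE 0.21, adjusted p = 5.07e-05), fkh-9 at 1.28 (SE 0.21, adjusted p = 8.39e-05), ets-4 at 1.18 and grh-1 at 1.17. Next came lim-9 at 1.09, ets-9 at 0.90, mab-7 at 0.81, atf-8 at 0.80 and ceh-14 at 0.80. Of the 24, zip-5, ceh-14, ceh-17, ceh-22, ceh-88, dmd-6 and ztf-27 entered only through the double mutant's table, which favours a higher value there. The met-2 and double mutant tables, but not the lin-65 one, held ceh-18, fkh-9, ets-9, hlh-13, hlh-32, sox-4 and vab-9. This favours a lower value in lin-65, so the calls of neither group are independent support. The gene tbx-36 alone was lower, by −0.89 (SE 0.18, adjusted p = 0.000548), and it entered only through the lin-65 table, which favours a higher value in lin-65. No call was made for ceh-2, ceh-24, ceh-31, fkh-5, hlh-6 and sox-3.

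The difference was shared by the tables at large. The median over members was 0.65 beside 0.70 over all genes, and 12 of 31 members lay above that all-gene median. With library medians set to 0, 6 members were called higher and 2 lower in place of 24 and 1. The 6 were ceh-18, zip-5, fkh-9, ets-4, grh-1 and lim-9, and fkh-5 joined tbx-36 among the lower. Since fkh-5 entered only through the double mutant's table, as lower, its call is no independent support. Of the 25 calls, 18 held in each of the 9 fits that left out 1 library. All double mutant libraries lay above all lin-65 libraries in 25 members and below them in 2. These shares were 80.6% and 6.45%, against 77.9% and 5.9% of all genes.

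**Figure D3:**
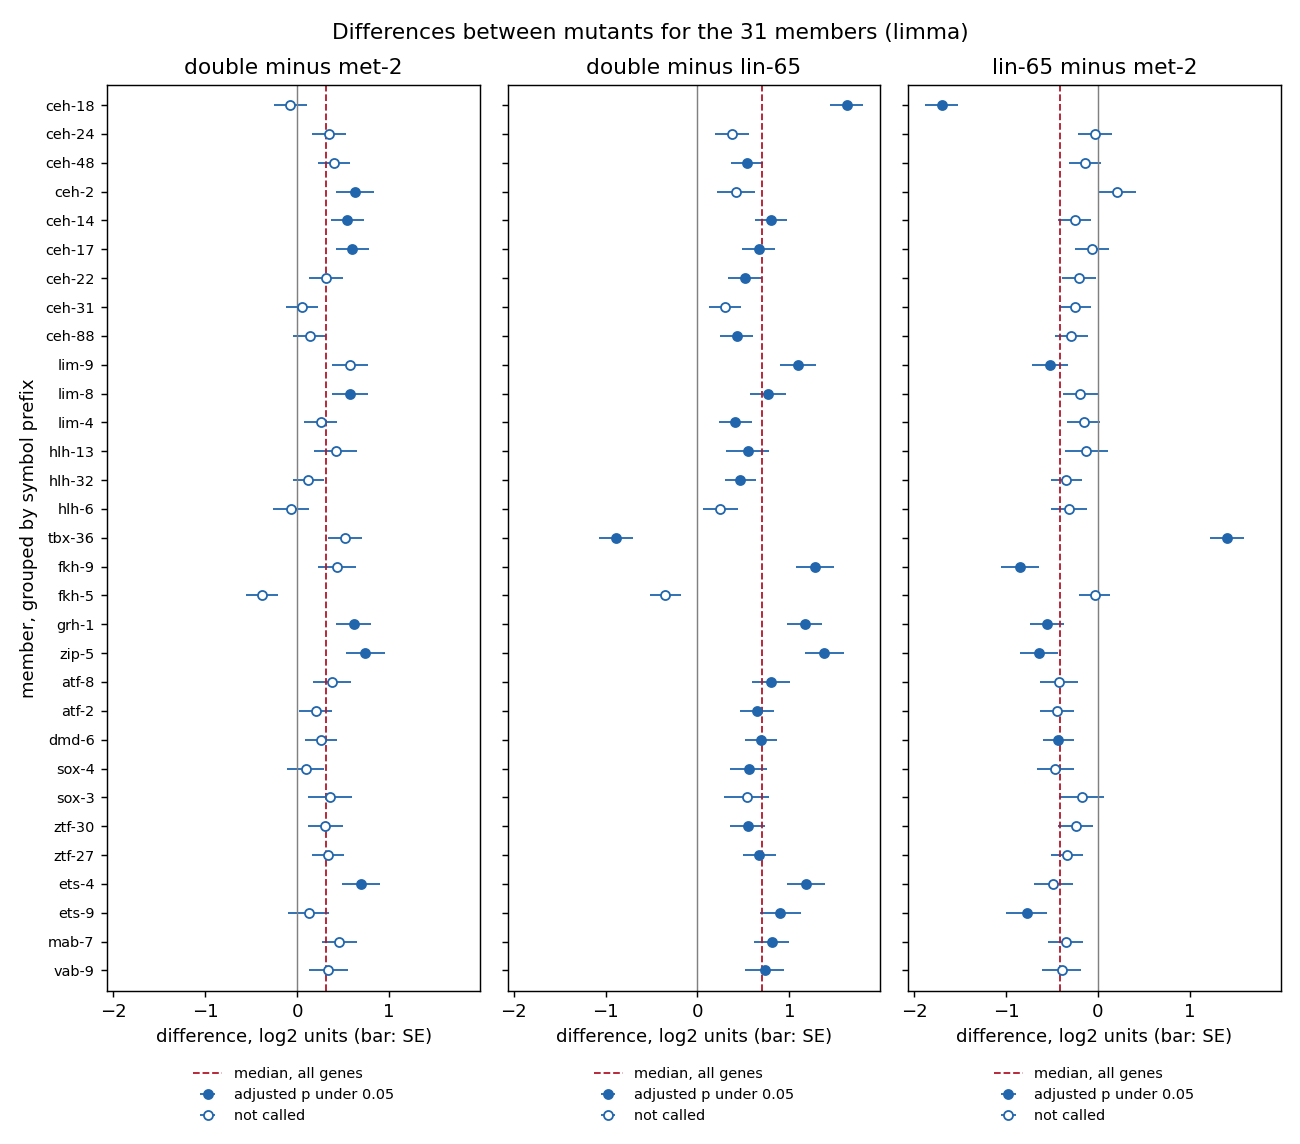
Difference between mutants in log2 units with its SE (horizontal axis) for each member (rows), from 1 limma fit. Filled points passed an adjusted p of 0.05 and the dashed line is the median over all 2949 genes, which lies at 0.32, 0.70 and −0.42 from left to right.

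The single mutants were compared directly as lin-65 minus met-2. In lin-65, 1 member was higher and 7 were lower (limma, adjusted p under 0.05), where 4.92% and 41.9% of all genes were so called, 46.8% together. The member higher in lin-65 was tbx-36, at 1.41 (SE 0.18, adjusted p = 1.23e-05). Since tbx-36 entered only through the lin-65 table, its high value there was a condition of entry and the call is no independent support. The 7 lower ones were led by ceh-18 at −1.70 (SE 0.18, adjusted p = 1.39e-06), fkh-9 at −0.85 (SE 0.21, adjusted p = 0.00372) and ets-9 at −0.78 (SE 0.22, adjusted p = 0.0102). These 3 were held by the met-2 and double mutant tables and not by the lin-65 one, which favours a lower value in lin-65. Then came zip-5 at −0.64, grh-1 at −0.55, lim-9 at −0.52 and dmd-6 at −0.43. The median difference over members was −0.31 beside −0.42 over all genes. All lin-65 libraries lay above all met-2 libraries in 1 member and below them in 10. These shares were 3.23% and 32.3%, against 5.8% and 47.1% of all genes.

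The calls of tbx-36, ceh-18 and fkh-9 held in every alternative fit tried, with adjusted p-values up to 0.000329, 0.000149 and 0.0301 by limma. Entry through the tables favours the direction of these calls in each fit, so their persistence is no independent support. Without replicate 1 of met-2 4 members were called in place of 8, and without replicate 1 or replicate 3 of lin-65 3 were. With library medians set to 0, 2 members were called higher in lin-65 embryos and 2 lower, the higher ones being tbx-36 and ceh-2.

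By chromosome, the members lay most often on X, with 11 of 31 or 35.5%. The X chromosome held 20.5% of table genes with an annotated position and 25.1% of all 207 annotated protein-coding genes with these prefixes. On X were ceh-14, ceh-18, ceh-31, ets-4, ets-9, fkh-9, hlh-13, lim-4, mab-7, sox-3 and sox-4. This includes both ETS genes and both SOX genes. The share in the outermost stretches of a chromosome, 25% of its length at each end, was 41.9% for members and 42.6% for the tables. An adjacent protein-coding gene was also in the tables for 15 members, or 48.4%, and for 43.3% of table genes.

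Developmental transcription factors with other symbols were also in the tables. Of 86 in a list of such genes, 20 were in the tables, and all 20 lay above 0 in all 9 libraries. As higher, 20 were held by the double mutant's table, 5 by the lin-65 one and 13 by the met-2 one, and none was listed lower. Of all genes 85.0%, 29% and 65.2% were listed higher in these tables. The heterochronic factor lin-14 was highest at 2.98 ± 0.04 in the double mutant, 1.56 ± 0.32 in lin-65 embryos and 2.41 ± 0.40 in met-2. Another heterochronic gene, the hunchback-like hbl-1, stood at 2.32 ± 0.06 in the double mutant, 1.52 ± 0.25 in lin-65 embryos and 2.0 ± 0.27 in met-2. In limma's test 19 of the 20 were higher in the double mutant than in lin-65 embryos and 1 was higher than in met-2, and 5 were lower in lin-65 than in met-2. Of all genes 74.3%, 11.8% and 41.9% were so called. Of the 20, unc-3, unc-4, cog-1, pros-1, pha-2, daf-16 and jun-1 entered only through the double mutant's table, which favours a higher value there. Most of the 20 were not held by the lin-65 table, which favours a lower value in lin-65. These calls are thus no independent support. None of 49 early lineage specifiers, such as the GATA gene end-1 and the T-box gene tbx-37, was in the tables, and their levels are not analysed here.

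Markers of other differentiated tissues were also measured. Neuronal markers had values for 9 of 12 genes, and the library medians were 1.67 to 1.86 in the double mutant, 0.80 to 0.84 in lin-65 embryos and 1.04 to 1.73 in met-2. Pharyngeal markers had values for 5 of 6, ceh-22 among them, with 2.31 to 2.44 in the double mutant, 0.55 to 0.95 in lin-65 embryos and 1.76 to 2.76 in met-2. Intestinal markers had values for 5 of 10, with 1.97 to 2.11 in the double mutant, 0.64 to 0.82 in lin-65 embryos and 1.42 to 2.12 in met-2. Of 6 sperm markers 1 had values, and its mean was 0.74 in the double mutant, 0.90 in lin-65 embryos and 1.34 in met-2. In the muscle, epidermal, neuronal, pharyngeal and intestinal lists, all double mutant and met-2 library medians lay above those of lin-65. As higher, the lin-65 table held 3 of 9 muscle, 1 of 5 epidermal, 1 of 9 neuronal and 0 pharyngeal or intestinal markers. It held 29% of all genes as higher. The double mutant's table held every marker with values in these lists. Such entry favours a lower value in lin-65, so the order is no independent support. Replicate 1 of met-2 was the highest met-2 library in these lists. For members, the double mutant and met-2 also lay above lin-65 in the median of strain means. By library, however, the member median of 1.11 in lin-65 replicate 2 exceeded the 1.08 and 1.00 of met-2 replicates 2 and 3. The part of tissue content or embryo stage in the members' values was not tested.

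**Figure D4:**
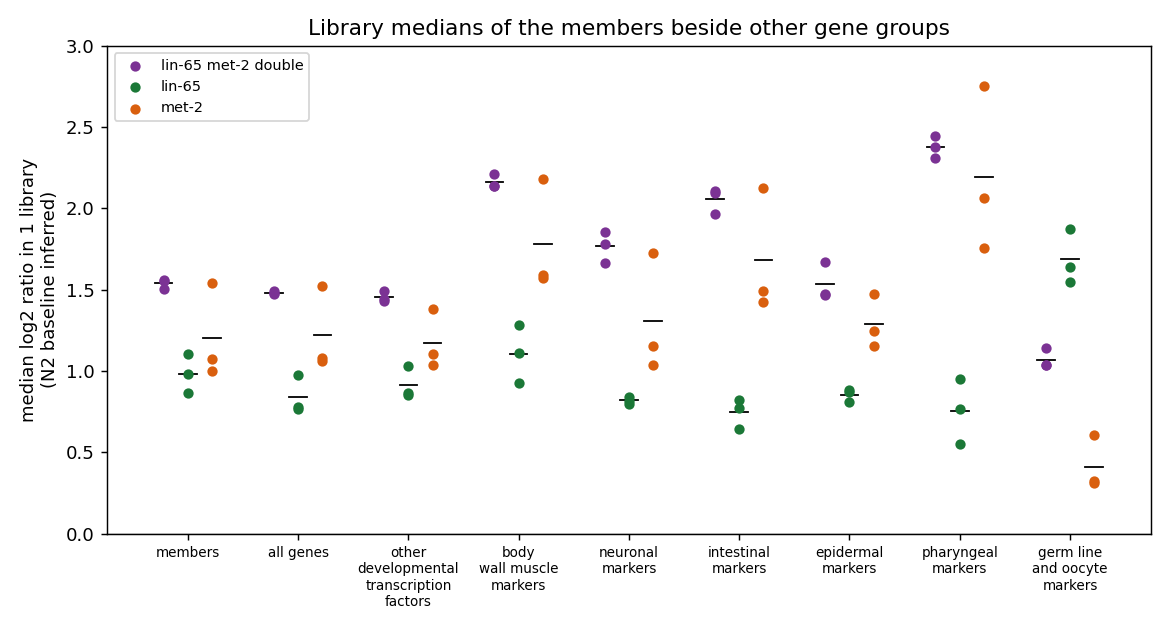
Median log2 ratio in each library (points; vertical axis, N2 baseline inferred) and mean of the 3 libraries (bars) for the members, all 2949 genes, other developmental transcription factors and tissue markers. Members lie near all genes in each mutant, and germ line and oocyte markers are highest in lin-65.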

How the data were processed

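RNA of whole early embryos was measured in 12 libraries, and the deposited tables hold 9 mutant columns. The authors deposited log2 values for selected genes, 1941 in the met-2, 973 in the lin-65 and 2638 in the double mutant table. Per the submitters' processing notes, edgeR and build ce10 were used; the sources used here do not name the aligner, counting, scaling or selection rule. The baseline was read from lin-65 and met-2 themselves. Every table gene had an absolute mean of at least 1 in its own mutant. The tables hold no counts, so depth is unknown. P-values measure the spread among these libraries.

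Symbols came from a gene name table (2828 of 2949 matched) and chromosomes from the Ensembl 115 annotation of WBcel235 (2869 matched). No sequence was used, and a planned promoter motif search was not run. The union of the tables was fitted with limma 3.58.1 in R 4.3.3, with strain as the only term, Benjamini-Hochberg adjustment over all 2949 genes and 0.05 as threshold. The step was tested on simulated data with independent noise. That simulation held no shift shared by a library and no selection of genes, so it does not cover these features of the data. No test against N2 was possible.

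Named members were all of a family with up to 5, the 5 with the largest absolute mean in a larger one, the 10 largest called differences per contrast, and any with a mean below 0. This covers 29 of 31; ceh-22 and ceh-88 were added. The members, gene lists and rules were chosen with earlier results of these data known. Alternatives were a replicate block, library medians set to 0, array weights, a robust prior, the genes of 2 tables, a stricter threshold, fewer prefixes and each library left out.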

Additional observations from a re-analysis of the deposited data

Results flagged for a closer look

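The T-box gene tbx-36 had libraries on opposite sides of the baseline. Its 3 lin-65 libraries and its 3 double mutant libraries lay above 0 and its 3 met-2 libraries below 0, the nearest at −0.01. The difference of lin-65 minus met-2 was 1.41 (limma, adjusted p = 1.23e-05). The gene entered only through the lin-65 table, so its high value in lin-65 was a condition of entry and this p-value is no independent support. For the double mutant minus met-2 it was 0.52 (SE 0.18, limma, adjusted p = 0.0581), which did not pass the threshold.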

How the results depend on the processing

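Library medians were set to 0 by subtracting from each library its median over the 2949 selected genes. This also takes out any change that the selected genes share. The member medians then became 0.091 in the double mutant, 0.13 in lin-65 embryos and 0.0093 in met-2. Calls then numbered 8 for double minus lin-65, 2 for double minus met-2 and 4 for lin-65 minus met-2. Under this setting 8 of the members called higher in the double mutant than in lin-65 changed sign, none with a limma adjusted p under 0.05: ceh-22 to −0.12, ceh-48 to −0.11, ceh-88 to −0.21, hlh-13 to −0.095, hlh-32 to −0.18, lim-4 to −0.23, sox-4 to −0.084 and ztf-30 to −0.10. No other called member changed sign under any alternative run. For double minus met-2, array weights gave 25 calls, the threshold of 0.01 gave 0, and leaving out replicate 1 of met-2 with replicate 2 of lin-65, chosen after seeing the data, gave 24. For lin-65 minus met-2 the threshold of 0.01 gave 3 and the same omission of both libraries 11. Leaving out 1 library gave 0 to 22 calls for double minus met-2, 19 to 28 for double minus lin-65 and 3 to 10 for lin-65 minus met-2, and member medians of 1.53 to 1.60 in the double mutant, 0.88 to 1.01 in lin-65 embryos and 1.07 to 1.30 in met-2. A limit of 2 log2 units left 7 members listed in the double mutant, 0 in lin-65 embryos and 2 in met-2. With a replicate block, double minus met-2 gave 3 calls, double minus lin-65 24 and lin-65 minus met-2 6. Deviations from the strain mean had correlations of −0.21 to 0.04 over 9 same-numbered pairs of libraries and −0.15 to 0.24 over the 18 other pairs. Whether libraries with the same number shared a batch was not tested. The causes were not tested. The spread of N2 and the sequencing depth are unknown.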

Other observations

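The double mutant's mean exceeded the sum of both single means in 3 members, or 9.68%, against 14.8% of all genes. They were zip-5 (1.73 against 1.32), ceh-14, whose double mutant mean and sum were both 1.34, and fkh-5 (−1.01 against −1.28), for which all values were below 0 and the double mutant was thus nearer to the baseline than the sum. The largest excess over the higher single mutant was that of zip-5 at 0.74, and the lowest value was that of tbx-36 at −0.89. These comparisons share the N2 baseline and were not tested. Both zip-5 and ceh-14 entered only through the double mutant's table, which favours a higher value there. The gene fkh-5 entered through it alone as lower, which favours a lower value there. Entry of tbx-36 through the lin-65 table alone favours a higher value in lin-65. Over members, the SD of 3 libraries was 0.12 at the median for the double mutant, 0.21 for lin-65 and 0.27 for met-2, beside 0.12, 0.18 and 0.31 over all genes.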
